A study of Zea mays with 8 samples.

Results

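The genes described here had RNA in every maize aleurone library and not a single count in any starchy endosperm library. A gene was taken when its expected count was 0 in all 4 starchy endosperm libraries and its level was at least 5 TPM (RSEM's length-corrected measure of a gene's share of transcripts) in all 4 aleurone libraries. Of 39475 genes, 267 met these conditions, and the 200 with the highest minimum TPM over the aleurone libraries were kept. Those 200 genes are called the aleurone-only genes, a name that covers these 2 tissues at this depth and nothing beyond them. Both conditions used the difference between the tissues, so that difference is described without a test, and the comparison tested is that between the ages within aleurone.

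All libraries came from kernels of the inbred maize line B73 grown in a greenhouse, without a mutation or treatment. The groups were aleurone at 18 days after pollination (DAP), aleurone at 22 DAP, starchy endosperm at 18 DAP and starchy endosperm at 22 DAP, each with 2 biological replicates. The kernels came from replicate plants, and the labels do not say which libraries share a plant. Kernels were frozen, thawed and peeled mechanically into an aleurone peel and the starchy tissue, so an aleurone library holds whatever the peel carried. In such bulk samples, fewer cells of a type and less RNA per cell cannot be told apart.

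The aleurone is the outer layer of the cereal endosperm. Its cells stay alive at maturity, store oil and protein, acquire desiccation tolerance under abscisic acid, and secrete hydrolases at germination. The starchy endosperm beneath it fills with starch and zeins, the storage proteins of maize, and dies at maturity.

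Total counts ran from 2473036 to 11529170 per library, and the replicate 2 libraries were the deeper ones in every group. They nevertheless held fewer genes with a count: 20682 against 22851 in aleurone at 18 DAP, 20143 against 23244 in aleurone at 22 DAP, 14197 against 18239 in starchy endosperm at 18 DAP, and 9343 against 16784 in starchy endosperm at 22 DAP. Marker sums followed the labels, but the aleurone marker dek1 and the starchy endosperm markers wx1 and o2 overlapped between the tissues. In aleurone at 22 DAP replicate 2, dek1 had 7.83 TPM, against 6.80 to 16.2 TPM in starchy endosperm. In that library wx1 had 1416 TPM, against 746 to 1979 TPM, and o2 had 107 TPM, against 70.0 to 255 TPM. The 10 aleurone markers found summed to between 10477 and 35171 TPM in aleurone and to between 68.6 and 106 TPM in starchy endosperm. The 25 zein genes took 7.76% to 11.6% of counts in aleurone libraries and 56.0% to 62.3% in starchy endosperm libraries. Zein RNA made in the peel and zein RNA carried over from the starchy tissue cannot be told apart. Among 9 symbols of the basal transfer layer found, 7 had no count and the sum stayed at or below 2.98 TPM.

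An absent count was rare among genes of the aleurone. Of the 10816 genes at 5 TPM or more in all 4 aleurone libraries, 2.47% met the rule, the 267 genes given above. This share was lower at higher aleurone levels, from 4.69% (144 of 3069) at a minimum of 5 to 10 TPM to 2.59% (81 of 3128) at 10 to 20 TPM, 1.09% (30 of 2749) at 20 to 50 TPM and 0.905% (9 of 994) at 50 to 100 TPM. It was 0.387% (3 of 775) at 100 to 500 TPM, and 0 of 101 genes above 500 TPM lacked a starchy endosperm count. The opposite pattern was rarer still. Genes without a count were also fewer in aleurone, however. Over all 4 libraries of a tissue, 13056 genes had no count in aleurone and 18618 had none in starchy endosperm. Exactly 1 gene, GRMZM5G831308, had no count in aleurone and at least 5 TPM in all 4 starchy endosperm libraries (8.71, 14.0, 6.39 and 14.4 TPM), of 3214 genes at that level there.

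**Figure D1:**
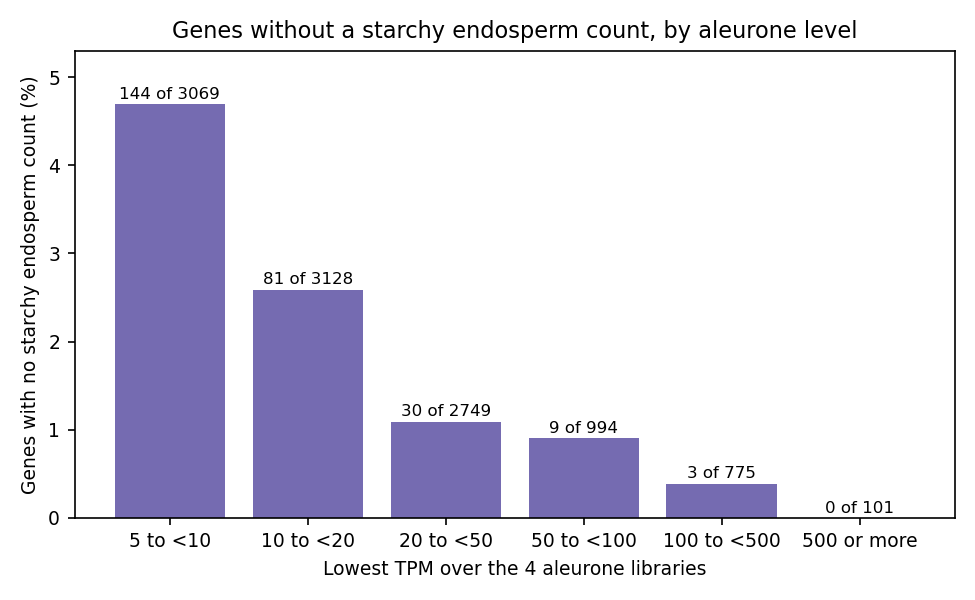
Bars give the percentage of genes with no count in any of the 4 starchy endosperm libraries (linear axis from 0), grouped by the lowest TPM over the 4 aleurone libraries, with the number of genes above each bar. The share falls from 4.69% in the lowest class to 0 of 101 genes in the highest.

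The count of qualifying genes rested on the starchy endosperm libraries available. Without starchy endosperm at 18 DAP replicate 1, which held the most detected genes of that tissue, 465 genes would have met the rule. With the replicate 1 libraries alone the number was 530, and with the replicate 2 libraries alone it was 1673.

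Within the 200 genes, the minimum aleurone level ranged from 6.80 to 441 TPM with a median of 11.8 TPM. It was at least 100 TPM for 3 genes, at least 50 TPM for 12 and at least 20 TPM for 42, while 81 lay between 10 and 20 TPM and 77 below 10 TPM. Together they summed to 6773 and 11757 TPM in aleurone at 18 DAP (replicates 1 and 2) and to 5537 and 9964 TPM at 22 DAP. That was 0.581%, 1.03%, 0.478% and 0.910% of the counts of these libraries.

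The edge of the rule separated near neighbours. The last genes kept were GRMZM2G413044, GRMZM2G014009 and GRMZM2G032276, with minima of 6.84, 6.83 and 6.80 TPM, and the next in order, GRMZM2G443525, GRMZM2G164974 and GRMZM2G139250, had 6.75, 6.74 and 6.72 TPM. Just under 5 TPM without a starchy endosperm count were HMG5 (GRMZM2G060253), GRMZM2G072578 and GRMZM2G470075, with minima of 4.99, 4.95 and 4.90 TPM. On the other side of the rule, GRMZM2G099340 reached 524, 668, 520 and 589 TPM in aleurone but had 1.02 counts in starchy endosperm at 18 DAP replicate 1, which kept it out. GRMZM2G410152 (minimum 293 TPM) was kept out by 3 counts and GRMZM2G141325 (minimum 195 TPM) by 1.

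How far below aleurone the starchy endosperm lay can be given only as a bound. The floor of 3 counts over the 4 starchy endosperm libraries equalled 0.217 CPM (counts scaled to a fixed library size) after TMM scaling, and 0.125 CPM by library size alone. TMM, the trimmed mean of M values, corrects library sizes for composition. Against that floor, mean aleurone levels in TMM-scaled CPM were at least 4.39-fold to at least 871-fold higher, with a median bound of 72.0-fold. The bound was 100-fold or more for 65 genes and under 10-fold for 8. By library size alone the median bound was 207-fold. TMM scaled the sizes of the zein-rich starchy endosperm libraries down (factors 0.537 to 0.645) and those of the aleurone libraries up (1.53 to 1.95). Both lowered the bounds. Without starchy endosperm at 18 DAP replicate 2, the deepest library, the bounds under TMM were 0.543 times as high. These bounds cover counting error in starchy endosperm only, and reads are not independent molecules. The aleurone mean was taken as it stood, so the ratio of a gene with few aleurone counts may lie below its bound.

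RSEM, the program behind the values, also gives a posterior interval for each TPM. It covers counting error and the assignment of reads that match several genes, and it too takes reads as independent. The upper bound for these genes in starchy endosperm had a median over genes of 1.15 TPM in 18 DAP replicate 1, 0.327 TPM in 18 DAP replicate 2, 1.40 TPM in 22 DAP replicate 1 and 0.543 TPM in 22 DAP replicate 2. For 187 of the 200 genes every aleurone lower bound lay above every starchy endosperm upper bound. The other 13 genes did not separate in this way. A count under 10 in some aleurone library also occurred in 13 genes, but these were not all the same genes. GRMZM2G423111 had at least 24 counts in every aleurone library and did not separate, with a lower bound of 0.000397 TPM. For GRMZM2G029692, with at least 49 counts, a starchy endosperm upper bound reached 21.1 TPM. RSEM's posterior SD exceeded 10% of the count in some aleurone library for 5 genes. In addition, 3 genes were shorter than 300 bases, where few reads make a high TPM.

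The most abundant aleurone-only gene was an oleosin (GRMZM2G333069), a protein of the oil body surface. Its level was 493 and 818 TPM in aleurone at 18 DAP and 441 and 700 TPM at 22 DAP, at least 871-fold above the floor in TMM-scaled CPM, or at least 2537-fold by library size alone. The ages overlapped, and replicate 2 was higher at both. OBAP2B (GRMZM2G107570), of the oil body-associated protein family, had 38.4 and 130 TPM at 18 DAP and 17.9 and 81.9 TPM at 22 DAP, with a bound of 173-fold.

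Of 6 oil body genes matched by name, the other 4 had starchy endosperm counts. All 4 were above OBAP2B in every aleurone library, but OBAP1A and OBAP2A were below the oleosin GRMZM2G333069 in at least 1 of them. The oleosin ole1 (GRMZM2G337229) reached 2859, 6368, 2769 and 9497 TPM in aleurone and between 3.92 and 8.59 TPM in starchy endosperm. For ole17 (GRMZM2G480954) the minimum in aleurone was 1221 TPM, with 34 counts summed over starchy endosperm. OBAP1A (GRMZM2G044627) and OBAP2A (GRMZM2G043521) had aleurone minima of 290 and 429 TPM, with 41 and 208 starchy endosperm counts. OBAP2B thus stood below its relative OBAP2A in aleurone in all 4 libraries, and no starchy endosperm count was seen for it.

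Genes without a name made up the next ranks. GRMZM2G409101 had 226, 415, 246 and 271 TPM in the order 18 DAP replicates 1 and 2 and 22 DAP replicates 1 and 2, and GRMZM2G083195 had 128, 214, 72.9 and 140 TPM. Their bounds were 250-fold and 831-fold. GRMZM5G846097 lay between them in rank at 105, 213, 119 and 345 TPM, but on few reads: its lowest library held 4 counts, its starchy endosperm upper bound was 60.6 TPM, and its bound was 7.81-fold. GRMZM2G092758 (96.1 to 374 TPM) and GRMZM2G322351 (68.9 to 386 TPM) followed the same order of libraries as the oleosin, with both replicate 2 libraries above both replicate 1 libraries. GRMZM2G007195 was the steadiest of the abundant genes, at 73.8, 69.5, 65.2 and 66.4 TPM. GRMZM2G379898 ran against the replicate pattern, at 218 and 63.8 TPM at 18 DAP and 533 and 141 TPM at 22 DAP.

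A reference entry was found for 155 of the 200 genes (77.5%), against 47.9% of all gene IDs. The latter include 12201 IDs without a count in any library, so these shares are of unlike sets. Of the 155 genes, 27 carried a gene name rather than a locus or clone number. Entries of 2 genes were transcribed pseudogenes. Only 1 pair of aleurone-only genes were next neighbours in the reference order among the 153 placed, GRMZM2G145962 and GRMZM2G304712. The genes had a median length of 1280 bases, against 1593 bases for genes at 5 TPM in all aleurone libraries that also had starchy endosperm counts, and 55.5% had a single listed transcript, against 37.2%. Fewer reads fall on a shorter gene at the same TPM, and the part of length in these counts of 0 was not tested. Of the 89 genes with 2 or more transcripts, 53 had the same main transcript in all 4 aleurone libraries. No transcript of the 200 had a starchy endosperm count, which follows from the rule, as a gene's count sums its transcripts.

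**Figure D2:**
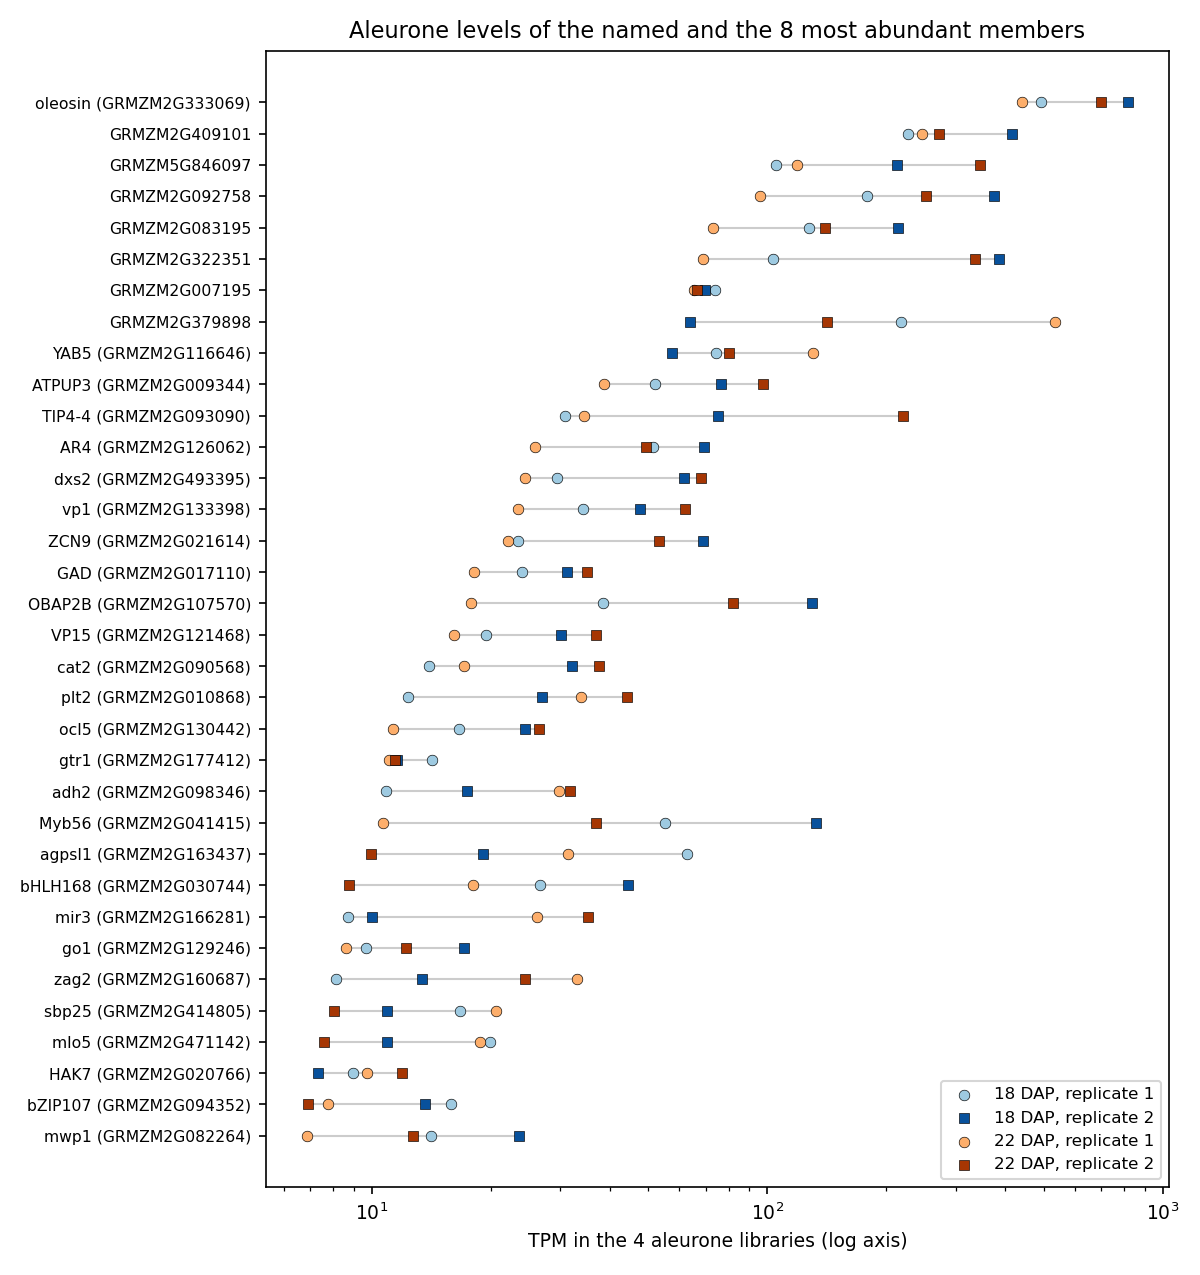
Each row is an aleurone-only gene, the 27 with a name and the 8 of highest minimum TPM, with its TPM in each of the 4 aleurone libraries on a log axis; the grey line spans the range. Squares (replicate 2) lie right of circles (replicate 1) for most genes; YAB5, agpsl1, sbp25, mlo5 and GRMZM2G379898 are among the exceptions.

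A regulator of seed maturation and a gene tied to abscisic acid synthesis were among the named genes. The B3 transcription factor vp1 (viviparous1, GRMZM2G133398), needed in maize for maturation and for anthocyanin in the aleurone, had 34.1 and 47.7 TPM at 18 DAP and 23.5 and 61.9 TPM at 22 DAP, with a bound of 199-fold. VP15 (GRMZM2G121468), which takes part in the molybdenum cofactor synthesis that abscisic acid synthesis needs, had 19.4 and 30.1 TPM and then 16.1 and 37.0 TPM. Neither gene separated the ages, and both were higher in replicate 2. The other viviparous genes matched by name, VP8 (GRMZM2G010353) and vp14 (GRMZM2G014392), also lacked starchy endosperm counts but fell below 5 TPM in aleurone, with vp14 at 1.26, 1.78, 7.99 and 20.7 TPM.

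Several transcription factor families had a single aleurone-only gene each. Of 7 HD-ZIP IV genes, a family known from the outer cell layers of maize organs, ocl5 (GRMZM2G130442) qualified, at 16.6 and 24.5 TPM at 18 DAP and 11.3 and 26.5 TPM at 22 DAP. Its relatives were close to qualifying: ocl1 (GRMZM2G026643), HDZIV6_OCL6 (GRMZM2G001289) and HDZIV8_OCL8 (GRMZM2G122897) had minima of 21.1, 10.8 and 27.5 TPM and 1 starchy endosperm count each. Whether ocl5 differs from these 3 in starchy endosperm was not detectable at this depth.

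The YABBY gene YAB5 (GRMZM2G116646) had the highest minimum TPM of the named transcription factors, at 74.4 and 57.5 TPM at 18 DAP and 130 and 80.1 TPM at 22 DAP. YABBY proteins are plant regulators known from lateral organs. Of the other 7 YABBY genes matched by name none reached 5 TPM in all aleurone libraries. The KANADI gene mwp1 (milkweed pod1, GRMZM2G082264), known for leaf polarity in maize, had 14.2 and 23.6 TPM and then 6.85 and 12.7 TPM, while its 2 relatives stayed at or below 1.00 TPM.

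Further regulators were Myb56 (GRMZM2G041415), bHLH168 (GRMZM2G030744), bZIP107 (GRMZM2G094352) and the squamosa-binding gene sbp25 (GRMZM2G414805). In the order given above, bHLH168 had 26.6, 44.4, 18.1 and 8.74 TPM, and bZIP107 had 15.9, 13.7, 7.75 and 6.91 TPM. For sbp25 the levels were 16.7, 10.9, 20.6 and 8.01 TPM. Of 22 squamosa-binding genes matched by name, 5 were at 5 TPM or more in all aleurone libraries. Of these sbp25 was the one without a starchy endosperm count.

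The MADS-box gene zag2 (GRMZM2G160687), known from the developing ovule and carpel of maize, was also among the 200. It had 8.13 and 13.4 TPM at 18 DAP and 33.0 and 24.4 TPM at 22 DAP, without overlap between the ages. Among other floral MADS-box genes, named after their values were seen, zmm27 (GRMZM2G129034) had 14.0, 4.79, 52.3 and 34.1 TPM, and ZAG1 (GRMZM2G052890) had 9.87, 2.81, 23.5 and 15.2 TPM, both without a starchy endosperm count. Of 16 such genes, zag2 included, 10 had counts in aleurone and none in starchy endosperm, against 6417 of all 39475 genes. Some of the 10 were near 0, such as ZAG5 (GRMZM2G003514), with 0.73 TPM in aleurone at 18 DAP replicate 1 and 0 in the other libraries. The list of maternal markers, with 6 genes found, summed to 18.1 and 16.2 TPM in aleurone at 18 DAP and 57.1 and 41.9 TPM at 22 DAP. Nearly all of this sum was zag1 and zag2 themselves, so it is not separate from the values above. In starchy endosperm the sum was at most 0.09 TPM, where the 0 of zag2 was set by the rule. Of that list p1 and zmm17 had no count in any library, and the part of maternal tissue in the zag2 values was not tested.

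Named enzymes of metabolism are given here, 4 of them beside relatives with starchy endosperm counts that were chosen after their values were seen. The gene dxs2 (GRMZM2G493395) encodes deoxyxylulose phosphate synthase, the entry enzyme of plastid isoprenoid synthesis. Its level was 29.5, 61.7, 24.4 and 68.0 TPM, with a bound of 312-fold. In aleurone dxs1 (GRMZM2G137151) was at similar levels (18.1, 55.0, 11.97 and 55.5 TPM) and it had 50 starchy endosperm counts, 49 of them in 22 DAP replicate 2.

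The catalase cat2 (GRMZM2G090568), which breaks down hydrogen peroxide, had 14.0, 32.1, 17.1 and 37.5 TPM. In contrast cat1 (GRMZM2G088212) was at 150 to 220 TPM in aleurone and 21.2 to 28.3 TPM in starchy endosperm. The alcohol dehydrogenase adh2 (GRMZM2G098346), an enzyme of fermentation, had 10.9 and 17.4 TPM at 18 DAP and 29.8 and 31.7 TPM at 22 DAP. Its relative adh1 (GRMZM2G442658) was at 486 to 538 TPM in aleurone and 176 to 345 TPM in starchy endosperm. In both families the member without starchy endosperm counts was the lower of the pair in aleurone.

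ADP-glucose pyrophosphorylase makes the precursor of starch, and its small subunit has several genes. The leaf form agpsl1 (GRMZM2G163437) had 62.6 and 19.2 TPM at 18 DAP and 31.4 and 9.97 TPM at 22 DAP, and no starchy endosperm count. The endosperm form bt2 (brittle2, GRMZM2G068506) had 289, 139, 233 and 82.2 TPM in aleurone and between 909 and 2349 TPM in starchy endosperm. Agpsemzm (GRMZM2G106213) had 245, 81.8, 278 and 112 TPM in aleurone and 21.3 to 59.1 TPM in starchy endosperm. All 3 were lower in replicate 2 than in replicate 1 at both ages in aleurone.

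Other named enzymes were go1 (GRMZM2G129246), a glycolate oxidase, at 9.65, 17.1, 8.63 and 12.2 TPM, and GAD (GRMZM2G017110), a glutamate decarboxylase, at 23.9, 31.1, 18.2 and 35.1 TPM. AR4 (GRMZM2G126062) had 51.5, 69.3, 25.8 and 49.4 TPM, and gtr1 (GRMZM2G177412) had 14.2, 11.6, 11.0 and 11.5 TPM. The cysteine proteinase mir3 (GRMZM2G166281), of a family named for insect resistance in maize, had 8.69 and 9.99 TPM at 18 DAP and 26.2 and 35.3 TPM at 22 DAP. Its relative mir2 (GRMZM2G150256) also met the rule, outside the 200, at 6.42, 11.5, 14.96 and 16.8 TPM, and both were higher at 22 DAP in all libraries.

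Among transport genes, TIP4-4 (GRMZM2G093090) is an aquaporin of the vacuolar membrane. It had 30.9 and 75.0 TPM at 18 DAP and 34.3 and 220 TPM at 22 DAP, so that replicate 2 at 22 DAP stood apart from the other 3 libraries. TIP3-1 (GRMZM2G305446) was the other tonoplast aquaporin matched by name at 5 TPM or more in all aleurone libraries. It reached 140, 379, 134 and 520 TPM and had 1057 starchy endosperm counts. ATPUP3 (GRMZM2G009344), listed under the name of an Arabidopsis purine permease, had 52.2, 76.5, 38.8 and 97.3 TPM. The potassium transporter HAK7 (GRMZM2G020766) had 8.96, 7.32, 9.72 and 11.9 TPM, and 9 of 23 HAK genes were at 5 TPM or more in all aleurone libraries, the other 8 with starchy endosperm counts.

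The phospholipid transfer gene plt2 (GRMZM2G010868) had 12.4 and 27.0 TPM at 18 DAP and 33.9 and 44.2 TPM at 22 DAP. By contrast plt1 (GRMZM2G101958), an aleurone marker, had 14636, 28034, 6875 and 16977 TPM in aleurone and 13.2 to 23.4 TPM in starchy endosperm. In both replicate numbers plt1 was lower at 22 DAP and plt2 was higher. ZCN9 (GRMZM2G021614), of the phosphatidylethanolamine-binding family that includes florigens, had 23.4, 68.8, 22.2 and 53.1 TPM. Its relative ZCN11 (GRMZM2G117057) had 34.3, 57.2, 43.8 and 76.2 TPM in aleurone and 281 starchy endosperm counts. Both genes listed as ZCN10 lay nearer to ZCN9 in starchy endosperm counts, but above it in every aleurone library. GRMZM2G059358 and GRMZM2G152689 had aleurone minima of 94.7 and 119 TPM. Each had 16.5 counts in starchy endosperm, all of them in 22 DAP replicate 2, and whether these were reads shared by both IDs was not tested. The membrane protein gene mlo5 (GRMZM2G471142), of the family behind mildew resistance in barley, had 19.9, 11.0, 18.8 and 7.57 TPM.

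**Figure D3:**
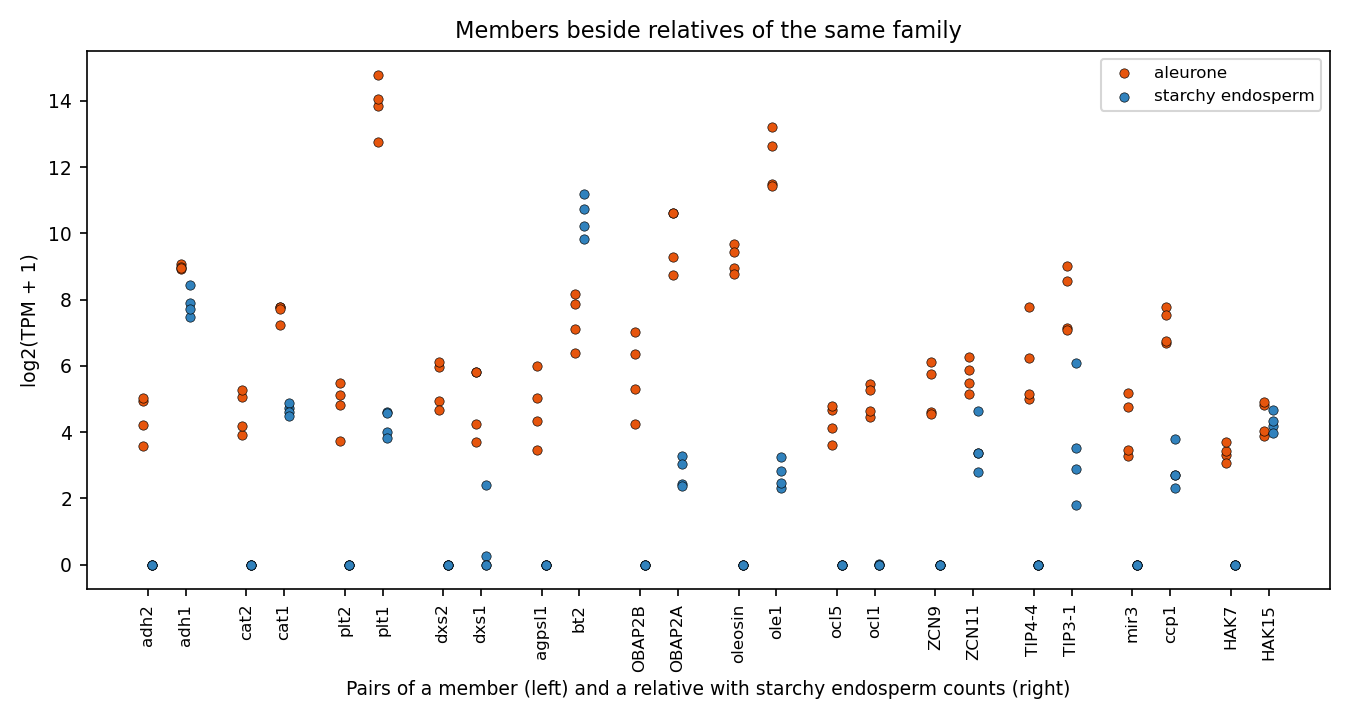
Points give log2(TPM + 1) in each of the 4 aleurone (orange) and 4 starchy endosperm (blue) libraries for 12 aleurone-only genes, each left of a relative matched by name. The aleurone-only genes lie at 0 in starchy endosperm by the rule, while bt2 is the relative whose starchy endosperm libraries all lie above its aleurone libraries.

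Across libraries the 200 genes moved together with replicate number. At 18 DAP 146 of them were higher in replicate 2 than in replicate 1, and at 22 DAP again 146. At both ages 128 (64%) were higher, against 18.6% of the 10816 genes at 5 TPM or more in all aleurone libraries, and 36 were lower at both. The median TPM ratio of replicate 2 to replicate 1 was 1.57 at 18 DAP and 1.71 at 22 DAP, against 0.764 and 0.713 for genes at that aleurone level that had starchy endosperm counts. In TMM-scaled CPM 159 were higher at both ages, against 33.6% of the genes with starchy endosperm counts, and by library size alone 137, against 20.8%. With 2 libraries per group this is a description, without a test.

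The ratio followed the number of starchy endosperm counts. Genes with fewer than 4 counts summed over starchy endosperm (357 genes) had median ratios of 1.204 and 1.197, those with 4 to 30 (1029 genes) had 0.816 and 0.812, those with 31 to 300 (5095 genes) had 0.762 and 0.707, and those with more (4068 genes) had 0.742 and 0.682. The aleurone marker sum, nearly all of it plt1 and ole1, was 18323 and 35171 TPM at 18 DAP (replicates 1 and 2) and 10477 and 27324 TPM at 22 DAP. Of its 10 genes, 6 were higher in replicate 2 at both ages, and 3 (dek1, cr4 and vpp1) were lower at both. The starchy endosperm marker sum in aleurone, most of it fl2, ranged from 8304 to 9506 TPM. Of its 7 genes, 5 were higher in replicate 2 at both ages and 2 (sh2 and bt2) were lower at both. The zein share was higher in replicate 2 (8.80% against 7.76%, and 11.6% against 9.82%). Embryo markers, nearly all of them the globulin glb1 (GRMZM2G067919), were at 471 against 1756 TPM in replicates 1 and 2 at 18 DAP, and at 244 against 1308 TPM at 22 DAP, while lec1 and wox5b had no count in any library. The part of these tissues in the replicate difference was not tested.

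**Figure D4:**
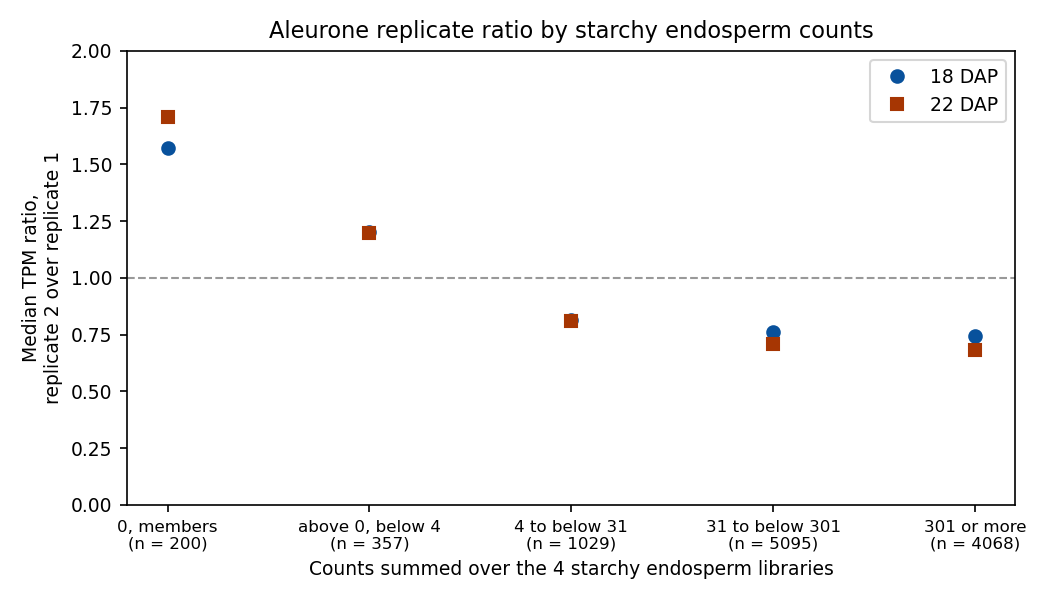
Points give the median over genes of the TPM ratio of replicate 2 to replicate 1 in aleurone at 18 DAP (circles) and 22 DAP (squares), for the 200 aleurone-only genes and for 4 classes of genes by counts summed over starchy endosperm; the dashed line marks equal levels. The medians fall from 1.57 and 1.71 in the aleurone-only genes to 0.742 and 0.682 in the class with the most counts.

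To assess change between the ages, aleurone at 22 DAP was compared with aleurone at 18 DAP by the quasi-likelihood test of edgeR. The choice of genes did not use the difference between the ages, but it did use the aleurone levels at both. Every aleurone library had to reach the minimum TPM, so genes with a low level at either age were left out. Large changes with age may therefore be under-represented among the aleurone-only genes. No gene passed a Benjamini-Hochberg adjusted p of 0.05 (0 of 19058 tested, 0.0%), and so 0 of the 198 aleurone-only genes tested. At an unadjusted p under 0.05 there were 196 genes (1.03%), and 1 of the 198. That gene was GRMZM2G379898, at a log2 fold change of 1.39 (SE 0.58), higher at 22 DAP in both replicate numbers. DESeq2 called 3 genes, with none of the 200 among them. Over the lists of related genes matched by name the count was likewise 0, among them 0 of 8 tested genes of abscisic acid response and late embryogenesis, 0 of 6 of the HD-ZIP IV list, which also holds plt1, and 0 of 9 of the jasmonate and lipoxygenase list. The values that follow describe these libraries.

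By TPM, 26 aleurone-only genes (13%, against 9.87% of genes at 5 TPM or more in all aleurone libraries) had both 22 DAP libraries above both 18 DAP libraries, and 55 (27.5%, against 17.2%) had both below. Within replicate numbers, 46 genes were higher at 22 DAP in both (23%, against 24.5%) and 102 were lower in both (51%, against 40.1%). The median log2 fold change of the 198 was -0.15, against -0.01 over all tested genes. The sign of this median rested on single libraries: it was 0.52 when aleurone at 18 DAP replicate 2 was left out, and 0.38 when aleurone at 22 DAP replicate 1 was left out.

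The largest rises without overlap started from low levels, and some rested on few reads. GRMZM2G099960 went from 8.03 and 7.27 TPM to 21.1 and 52.1 TPM (log2 fold change 2.48, SE 1.81), with 10 counts in its lowest library. For mir3 the log2 fold change was 1.87 (SE 1.13). GRMZM2G573324 went from 8.09 and 8.63 TPM to 15.1 and 35.9 TPM, and GRMZM2G117030 from 8.13 and 11.7 TPM to 14.9 and 43.8 TPM. Named genes without overlap in this direction were also YAB5, plt2, adh2, zag2 and HAK7, with log2 fold changes of 0.69, 1.08, 1.22, 1.40 and 0.59. None of these passed the test.

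The largest falls were those of GRMZM2G042758, from 46.0 and 63.6 TPM to 7.45 and 13.2 TPM (log2 fold change -2.24, SE 1.25), and GRMZM2G026143, from 92.7 and 258 TPM to 24.7 and 49.3 TPM (-2.12, SE 1.33). Myb56 went from 55.3 and 133 TPM to 10.7 and 36.9 TPM (-1.80, SE 1.25). GRMZM2G097469 had 76.5 and 68.3 TPM at 18 DAP and 21.3 and 18.8 TPM at 22 DAP, with replicates that lay close together at each age. The falls too rested on few reads. In the order given, their lowest libraries held 25, 25, 26 and 32 counts, against 10, 47, 17 and 36 for the rises above. Named genes lower at 22 DAP without overlap were also bHLH168, bZIP107, mwp1, AR4 and gtr1, with log2 fold changes of -1.30, -0.94, -0.74, -0.49 and -0.03. None passed the test here either.

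**Figure D5:**
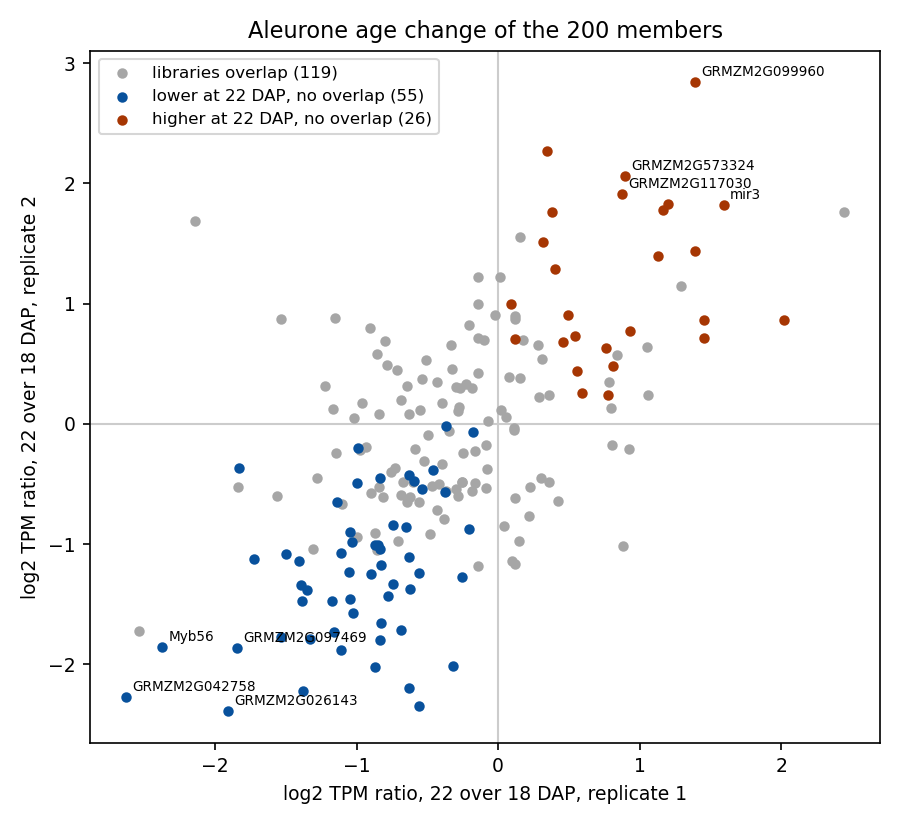
Each point is 1 of the 200 aleurone-only genes, placed by its log2 TPM ratio of 22 over 18 DAP in replicate 1 (horizontal) and replicate 2 (vertical); colours mark the 26 genes higher and the 55 lower at 22 DAP without overlap, and the 119 with overlap. More points lie in the lower left (102 lower in both replicate numbers) than in the upper right (46 higher in both), and no gene passed the adjusted test.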

How the data were processed

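RNA-seq of 8 maize libraries was quantified with RSEM 1.2.15 and Bowtie2 2.2.3 on the build B73 RefGen_v3, after FastQC and with SAMtools, per the submitters' processing notes. No source used here names the annotation or the strand setting. The authors deposited RSEM expected counts and TPM per gene and transcript, with posterior bounds, per the file headers. Isoform percent in the deposited transcript tables gave the main transcripts. The genes and gene lists were chosen with earlier results of these data known, and the family patterns and relatives after values were seen. Named genes are the 8 highest by minimum TPM, the 4 largest changes with age per direction without overlap, list members, genes at the thresholds, and every gene with a name. Names came from a reference table of Zm-B73-REFERENCE-NAM-5.0, without its coordinates.

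For the age comparison expected counts were rounded and fitted with edgeR 4.0.16 in R 4.3.3 (filterByExpr, TMM, 4 group means, all 8 libraries), with adjusted p over 19058 genes. DESeq2 1.42.0 was an alternative. The model was tested on simulated data. The labels do not say that replicate numbers share plants, but deviations of same-numbered libraries correlated in all 6 pairs of groups (r from 0.19 to 0.41 over 19058 genes), and a fit with the replicate number as a block was run as an alternative. P-values measure the spread between these samples only. Tables were written with Python 3.11.15 and pandas 2.3.3.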

Additional observations from a re-analysis of the deposited data

How the results depend on the processing

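The number of genes meeting the rule, 267, was 569 at a minimum of 2 TPM, 123 at 10 TPM, 509 with group means of at least 5 TPM, and 611 with up to 3 starchy endosperm counts summed. It was 530 with the replicate 1 libraries alone and 1673 with replicate 2 alone, and leaving out single libraries gave 290 to 465. Across all genes the age comparison gave 0 calls by edgeR, 3 by DESeq2 and 6 without the filter on low counts; none of the 200 was called under any alternative run. With the replicate block, which treats the replicate numbers as pairs, 0 genes were called and the median log2 change of the aleurone-only genes was -0.23, against -0.15. Leaving out single libraries moved that median from -0.96 to 0.52. The 8 genes of largest change with age kept their direction in all 112 values from the alternatives. All 34 ratio bounds moved by more than their replicate SD with library size alone, which gave 2.76 to 3.16 times the values under TMM. Leaving out single libraries gave 0.452 to 1.28 times those values, with 18 of 272 bounds moved by more than their replicate SD, 12 of them without starchy endosperm at 18 DAP replicate 2, 5 without 22 DAP replicate 2 and 1 without 18 DAP replicate 1. The count of genes higher in replicate 2 at both ages (128) was 159 in TMM-scaled CPM and 137 by library size, both scales added after the data were seen. The planned promoter motif search was not run, as no sequence of the files' build was used here. Depth limits all statements of absence to the floor of 3 counts over the starchy endosperm libraries.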
